A study of Mus musculus with 2 samples.

Results

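Haem is built along a fixed chain of enzymes, and the 9 genes described here are the measured members of that chain together with Clpx, which encodes the unfoldase that activates and turns over the first enzyme. They were taken by symbol: Alas1 and Alas2 (step 1), Alad (step 2), Uros (step 4), Urod (step 5), Cpox (step 6), Ppox (step 7), Fech (step 8) and Clpx. They are 9 of 43346 mouse gene rows, with 48 annotated transcripts, and all 9 were at or above 1 TPM (a transcript's share of all transcripts, corrected for its length and scaled to sum to 1000000) in both libraries. The enzyme of the third step was not analysed here.

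The first enzyme, 5-aminolevulinate synthase, joins glycine and succinyl-CoA in the mitochondrial matrix. Its ALAS1 form is made in most cells, and its ALAS2 form is the erythroid one, whose messenger RNA carries an iron-responsive element that iron regulatory proteins bind to limit translation when iron is scarce. The middle steps run in the cytosol, the last ones return to the mitochondrion, and ferrochelatase (Fech) finally inserts iron into protoporphyrin; GATA1 is a known activator of several of these genes in erythroid cells.

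The study measured polyadenylated RNA by paired-end sequencing in G1E-ER4, an immortalized mouse erythroid line that lacks its own GATA1 and carries GATA1 fused to the oestrogen receptor's ligand-binding domain. There is a single group: male-derived cells in which 10 nM 17beta-estradiol had been present for 14 h. It has 2 libraries, labelled biological replicates 1 and 2, and both point to a single biosample record, so nothing in the labels shows separate cultures. Cells without estradiol were not analysed here, so no change on differentiation can be read from these values, and a p-value below covers counting error between these 2 libraries only.

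The libraries held 38395481 and 60097379 expected counts (fragments assigned to genes by a statistical model), so replicate 2 was 1.57 times deeper. A count of 0 allows up to 3 counts, or 0.0781 and 0.0499 CPM (counts scaled to a library of 1000000). The 8 erythroid marker genes were all at or above 1 TPM in both libraries, while 0 of 16 myeloid, lymphoid, liver, fibroblast and endothelial markers were, and 8 of those 16 had 0 counts in both. The most abundant of the 16 was Apoa1, at 0.41 and 1.92 TPM. The libraries differed widely from each other: by an exact binomial test on counts scaled for depth and composition (TMM), with Benjamini-Hochberg adjustment and a minimum fold of 1.5, 41.4% of 11230 tested genes were called, 24.3% as higher in replicate 2 and 17.1% as higher in replicate 1. Among the erythroid markers 5 were called higher in replicate 2 and 1 higher in replicate 1, and the 8 summed to 32903 and 83828 TPM in replicates 1 and 2. Gata1, among those 5, was at 1132 and 2656 TPM. The line carries GATA1 as a fusion, and RNA of that construct cannot be told apart from the gene's own here. The level of Gata1 is therefore no separate sign of cell type. Of the summed TPM Hbb-bs held 13158 and 49652, and Klf1 was the marker called higher in replicate 1. The part of these differences in the ones described below was not tested.

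Several of the values below turn on short transcripts that start inside a gene, so their 5′ ends are shown first, read from the GENCODE M21 transcripts (GRCm38). Lower case marks bases that belong to the short transcript alone, with their coordinates, and capitals mark the first 30 bases of the next exonic stretch that it shares with the full-length messenger RNA. Alas2-204 is a processed transcript of 569 bases that begins in the intron before exon 10 of 11 (own bases chrX:150566390-150566500, plus strand). Urod-209 is a retained-intron transcript of 598 bases that begins in the intron before exon 7 of 10 (own bases chr4:116991759-116991886, minus strand). Uros-207 is a processed transcript of 598 bases with a first exon of its own ahead of exon 6 of 10 (own bases chr7:133697980-133698080, minus strand).
Alas2-204: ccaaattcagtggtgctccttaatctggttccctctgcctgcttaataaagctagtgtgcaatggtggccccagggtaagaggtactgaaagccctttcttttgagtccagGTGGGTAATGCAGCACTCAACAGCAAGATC
Urod-209: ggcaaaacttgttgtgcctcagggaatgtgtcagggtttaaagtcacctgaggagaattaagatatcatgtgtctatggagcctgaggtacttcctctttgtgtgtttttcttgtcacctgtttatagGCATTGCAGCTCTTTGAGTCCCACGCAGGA
Uros-207: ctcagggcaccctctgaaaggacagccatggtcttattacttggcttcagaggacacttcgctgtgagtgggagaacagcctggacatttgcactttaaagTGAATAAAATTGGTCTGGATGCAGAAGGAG

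The iron-responsive element of Alas2 is shown because it sets apart the 2 full-length transcripts from the short one. A script searched the 5′ leaders of protein-coding transcripts for the loop CAGTGN of this element, closed by a fully paired stem below it and preceded by its bulged cytosine. It found it in 60 of 49055 transcripts (0.122%), and among the protein-coding transcripts of these genes only in Alas2-201 and Alas2-202. In Alas2-201 the stretch is bases 83 to 111, at the end of exon 1 (chrX:150547457-150547485, plus strand), with the loop in capitals.
Alas2-201 element: tttggttcgtcctCAGTGCagggcaacag
In Alas2-204 the leader is absent altogether, since that transcript holds only exons 10 and 11 and intronic sequence.

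GATA words (GATA with A or T before it and A or G after it, on either strand) were sought in RefSeq promoter windows (GRCm38.p6, 250 bases before to 50 after the start), since the line carries an inducible GATA1. Of the 9 genes 8 had a window, with 11 windows in all. Of these windows 3 held a GATA word, in Alas2, Cpox and Uros, beside 29.8% of all 32851 windows. The Uros words lay in the window of a RefSeq start at chr7:133702500, downstream of the start of Uros-204 (chr7:133708958). The Uros window at the upstream start, chr7:133709295, held no such word. Shown are the stretches of Alas2 and Cpox before the RefSeq start, cut where they would reach a transcript in GENCODE. They are chrX:150547167-150547374 for Alas2 and chr16:58669958-58670207 for Cpox, both on the plus strand. The GATA words in them are in capitals as they read on the gene's strand.
Alas2: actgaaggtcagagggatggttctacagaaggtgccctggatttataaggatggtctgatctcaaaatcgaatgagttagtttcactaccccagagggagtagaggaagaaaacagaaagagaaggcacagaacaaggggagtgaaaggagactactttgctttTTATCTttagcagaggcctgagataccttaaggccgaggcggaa
Cpox: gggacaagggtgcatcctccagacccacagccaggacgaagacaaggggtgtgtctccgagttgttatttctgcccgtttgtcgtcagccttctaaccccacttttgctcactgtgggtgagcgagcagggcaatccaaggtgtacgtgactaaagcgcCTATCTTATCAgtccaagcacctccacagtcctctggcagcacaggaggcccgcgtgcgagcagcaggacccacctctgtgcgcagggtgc
The word lies at bases -86 to -81 from the RefSeq start in Alas2, and a pair of words sharing 1 base covers -91 to -81 in Cpox. Another GATA word in the Cpox window lies past the stretch shown, at bases 4 to 9 from the RefSeq start. The NRF1 core (GCATGCGC), in 2.71% of all windows, occurred in those of Alas1 and Clpx, and CACCC words (CCACACCC, CCGCACCC or CCTCACCC), in 7.84% of all windows, in those of Alas1. TATAAA, in 13.6% of all windows, occurred among these genes only in that of Alas2. There it lies on the strand opposite to the gene, at bases -209 to -204 from the RefSeq start. A match describes the letters of the window and not a bound site.

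Along the chain the levels were uneven: the second enzyme and the last 3 were abundant, and those of steps 1, 4 and 5 were lower than these. In order of mean TPM the genes ran Alad, Cpox, Fech, Ppox, Urod, Alas2, Clpx, Uros, Alas1, from 760 to 2.58 TPM. Alad lay above 99.2% of protein-coding gene rows, Urod above 90.3%, Alas2 above 87.5%, Uros above 74.6% and Alas1 above 65.6%. Only 4 of the 9 were at 50 TPM or more in both libraries, namely Alad, Cpox, Ppox and Fech. A pair of neighbours in the order was called separated where the log2 ratio of TPM + 0.1 had the same sign in both libraries and its mean exceeded 2 times the range between them. By that rule 3 of the 8 neighbouring pairs were separated: Cpox over Fech (mean log2 ratio 0.51 ± 0.14, SD, n = 2), Urod over Alas2 (0.46 ± 0.14) and Uros over Alas1 (1.82 ± 0.11). The other 5 pairs did not meet the rule. Of these Alas2 and Clpx swapped places, at a log2 ratio of -0.63 in replicate 1 and 1.57 in replicate 2, whereas Ppox over Urod (3.09 and 1.24) and Clpx over Uros (2.00 and 0.94) kept one sign with a mean above the range. Over protein-coding transcripts alone 2 pairs were separated, Cpox over Fech and Ppox over Alas2. Urod then lay below Alas2 in both libraries, at 16.1 and 6.76 TPM against 17.7 and 20.5, and Uros over Alas1 (1.63 and 2.80) no longer met the rule.

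**Figure D1:**
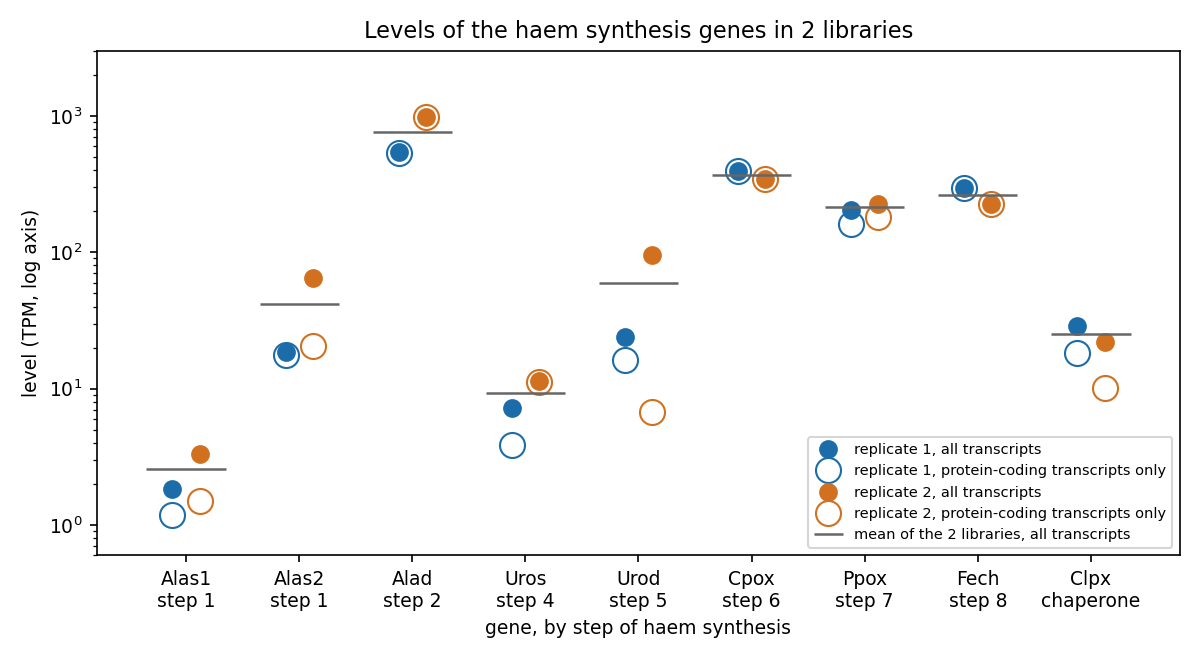
Level of each gene in each library (TPM, log axis), by step of haem synthesis. Filled points sum all transcripts, open circles only those annotated as protein coding, and grey lines are the means of the 2 libraries. The filled points of Alad, Cpox, Ppox and Fech lie at or above 205.7 TPM in both libraries. Filled and open points lie furthest apart for Urod and Alas2 in replicate 2. Smaller gaps show for Alas1, Clpx and Ppox in both libraries, and for Uros and Urod in replicate 1.

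At step 1 the RNA of the erythroid form far exceeded that of the ubiquitous one. Alas2 (chrX:150547375-150570638, plus strand) had levels of 18.7 and 64.9 TPM (1000 and 3013 expected counts). Alas1 (chr9:106233455-106248654, minus strand) was at 1.85 and 3.31 TPM (111 and 270 expected counts), below Alas2 in each library. The log2 ratio of Alas2 over Alas1 was 3.27 and 4.25, a mean of 3.76 ± 0.70 (SD, n = 2), or 13.5-fold, and separated by the rule above. Over protein-coding transcripts alone the ratio was almost the same in both libraries, at 3.74 ± 0.08. Alas2 made up 91.0% and 95.1% of the summed TPM of both genes, which was 20.5 and 68.2. The proteins encoded by Alas1-201 and Alas2-201, 641 residues for ALAS1 and 587 for ALAS2, shared 66.3% of 570 aligned residues, and the longest run of bases common to the 2 genes' transcripts was 20.

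Scaled counts of Alas2 were 1.83-fold higher in replicate 2 (95% counting interval 1.70 to 1.96, adjusted p = 5.23e-66, exact binomial test), while its TPM was 3.48-fold higher. The gap between those folds followed the transcripts assigned. Alas2-204 took 0 counts in replicate 1 and 988 counts in replicate 2, with a posterior standard deviation of 18.6 counts in the latter, and its share of the gene's TPM was 0 and 67.7%. The full-length Alas2-201 and Alas2-202 held 60.4% and 34.5% in replicate 1, and 15.1% and 16.5% in replicate 2. The fitted effective length of the gene was 1761 bases in replicate 1 and 853 bases in replicate 2. Protein-coding Alas2 transcripts summed to 17.7 and 20.5 TPM, a 1.16-fold difference. They held 99.0% and 67.0% of the gene's expected counts, against 94.9% and 31.6% of its TPM.

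Alas1 counts were 1.47-fold higher in replicate 2 (95% counting interval 1.18 to 1.86), with an adjusted p of 0.000773 by the exact binomial test, and the gene was not called because its fold lay under 1.5. Its transcripts shared these few fragments differently in the libraries. Alas1-201 held 55.0% of the TPM in replicate 1 and 15.3% in replicate 2, and Alas1-207, another coding form, 8.81% and 30.2%. Alas1-206, a processed transcript, held 36.2% and 2.56%, and Alas1-208, annotated for nonsense-mediated decay, 0 and 39.4%. That last share rested on 45.3 counts with a posterior standard deviation of 15.5.

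Clpx, whose protein unfolds ALAS within mitochondria, lies at chr9:65294260-65330658 on the plus strand and was at 28.9 and 21.9 TPM (1889 and 2214 expected counts), and its scaled counts in replicate 2 were 0.711 of those in replicate 1, a difference under the minimum fold. Clpx-201, the main coding form, held 63.3% and 44.9% of its TPM. Clpx-204, a retained-intron transcript that covers the first 4 of 14 exons, held 36.7% and 54.0%. Coding Clpx transcripts were at 18.3 and 10.1 TPM.

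Alad, which condenses 2 molecules of 5-aminolevulinate into the first pyrrole, was the most abundant of the chain genes analysed here in both libraries. It lies at chr4:62509169-62519918 on the minus strand, and its levels were 539 and 981 TPM (17465 and 56293 expected counts). Its scaled counts were 1.95-fold higher in replicate 2 (95% counting interval 1.92 to 1.99) and it was called. Its TPM and its coding TPM were each 1.82-fold higher. Alad-201 alone held 92.0% and 94.4% of the gene's TPM. Relative to both ALAS genes summed, Alad was higher by 4.71 and 3.84 on the log2 scale (mean 4.28, or 19.4-fold), a separated step. Over protein-coding transcripts the ratio was 4.82 and 5.46 (mean 5.14, or 35.3-fold), larger in replicate 2 instead of replicate 1.

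Uros, which closes the linear tetrapyrrole into uroporphyrinogen III, lies at chr7:133686243-133710072 on the minus strand and was the least abundant gene after Alas1, at 7.16 and 11.4 TPM (211 and 876 expected counts). The step from Alad down to Uros, at -6.21 and -6.42 on the log2 scale, was the widest of those analysed. It passes over the enzyme of the third step. Scaled counts of Uros were 2.51-fold higher in replicate 2 (95% counting interval 2.16 to 2.94, adjusted p = 1.91e-38, exact binomial test), and it was called. Here the short transcript was assigned in the shallower library instead. Uros-207 took 40.8 counts and 41.5% of TPM in replicate 1, and 0 of both in replicate 2, where the posterior standard deviation was 0.86 counts. The coding Uros-204 held 21.6% and 51.0%, and Uros-203 16.0% and 26.7%. Coding transcripts of Uros were therefore 2.90-fold higher in replicate 2, at 3.85 and 11.2 TPM, against 1.59-fold for the gene's TPM.

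Urod, which removes 4 carboxyl groups from uroporphyrinogen, gave opposite directions by measure. It lies at chr4:116989965-116994413 on the minus strand, and the gene as a whole had 24.0 and 95.4 TPM (708 and 2562 expected counts). Its scaled counts were 2.19-fold higher in replicate 2 (95% counting interval 2.02 to 2.39, adjusted p = 4.11e-86, exact binomial test), and it was called. Its protein-coding transcripts, in contrast, were at 16.1 and 6.76 TPM, so that replicate 2 had 0.419 of the level in replicate 1. Urod-209 took 0 counts in replicate 1 and 1969 in replicate 2 (posterior standard deviation 16.8), or 0 and 85.8% of TPM. The full-length Urod-201 held 609 and 438 counts, and 62.0% and 6.33% of TPM. Urod-205, another retained-intron transcript from the gene's last exons, held 20.8% and 2.40%. The gene's effective length was 968 and 494 bases.

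**Figure D2:**
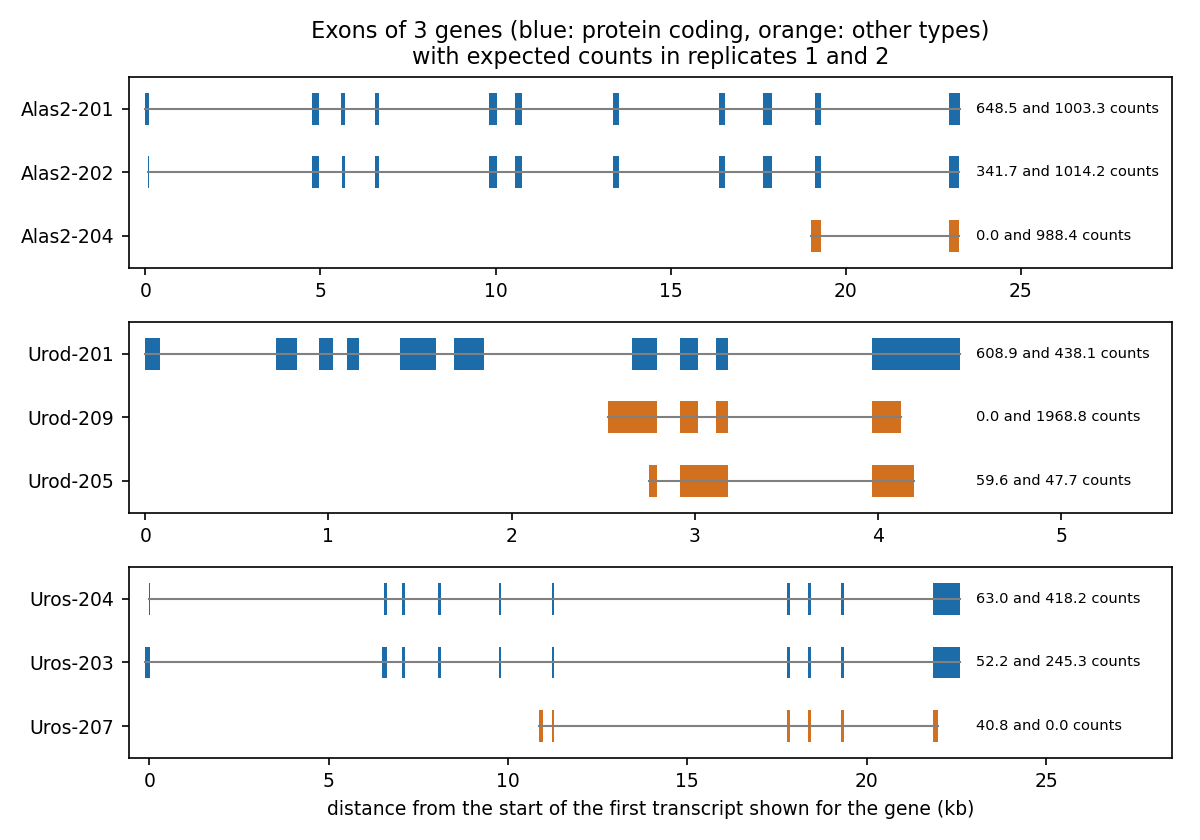
Exons of Alas2, Urod and Uros transcripts by distance from the start of the first transcript shown (kb), with expected counts in replicates 1 and 2 at the right. Blue transcripts are annotated as protein coding and orange ones as processed or retained-intron; Alas2-204 and Urod-209 cover the last exons and take 0 counts in replicate 1, and Uros-207 takes 0 counts in replicate 2.

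The last 3 enzymes were abundant, and none was called between the libraries. Cpox, which makes protoporphyrinogen IX in the space between the mitochondrial membranes, lies at chr16:58670292-58717636 on the plus strand and was at 395 and 345 TPM (36503 and 56846 expected counts). Its scaled counts in replicate 2 were 0.944 of those in replicate 1. Ppox, which oxidises protoporphyrinogen to protoporphyrin, lies at chr1:171275990-171281186 on the minus strand and was at 206 and 225 TPM (9349 and 19332 expected counts), with scaled counts 1.25-fold higher in replicate 2. Ppox was lower than Cpox in both libraries, by a log2 ratio of -0.94 and -0.61, and that step was separated. Fech was at 296 and 226 TPM (24816 and 33757 expected counts), with scaled counts in replicate 2 at 0.825 of replicate 1. Fech over Ppox was 0.52 and 0.01 on the log2 scale and not separated.

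Cpox and Fech each have 1 transcript in the deposited tables, so they could not show a shift between isoforms. Ppox-201 held 78.1% and 80.1% of the TPM of Ppox, and Ppox-204, a processed transcript of 420 bases, 17.6% and 12.4%. In all 3 of the 6 steps from 1 measured enzyme to the next were separated: Alad over ALAS, Uros over Alad, and Ppox over Cpox. Urod over Uros (1.73 and 3.06), Cpox over Urod (4.03 and 1.85) and Fech over Ppox were not. With protein-coding transcripts alone Cpox over Urod became separated as well, at 4.60 and 5.65, and Urod over Uros had opposite signs, at 2.04 and -0.71.

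Set against all genes, 4 of the 9 were called between the libraries, all 4 (Alas2, Alad, Uros and Urod) as higher in replicate 2, beside 41.4% of all tested genes called and 24.3% called in that direction. The called fraction of these genes was thus near that of all genes. Their median log2 difference in scaled counts was 0.56, beside 0.05 over all tested genes. In TPM it was 0.66, beside -0.10 over protein-coding genes at or above 1 TPM in both libraries. In coding TPM it was 0.17, beside -0.06, and 4 of the 9 were then lower in replicate 2.

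**Figure D3:**
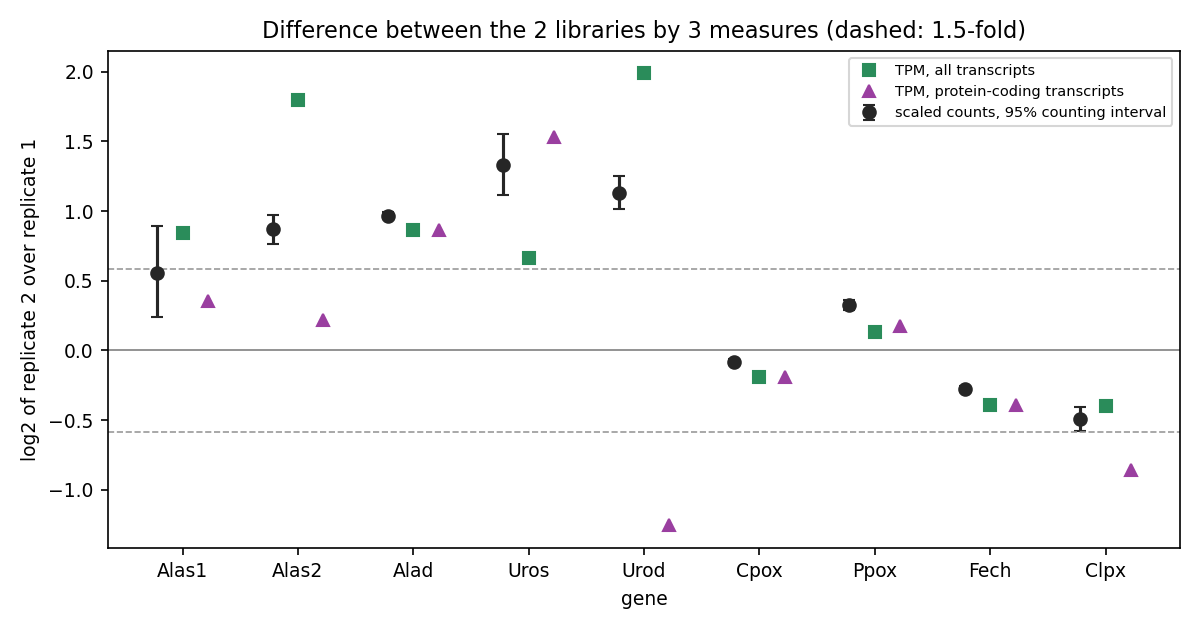
Log2 of replicate 2 over replicate 1 for each gene by scaled counts (black, with the 95% counting interval), TPM of all transcripts (green) and TPM of protein-coding transcripts (purple); dashed lines mark 1.5-fold. The measures lie close together for Alad, Cpox, Ppox and Fech and part for Alas2 and Urod, where Urod is at 1.13 by scaled counts and -1.26 by coding TPM.

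Of the 7 genes with 2 or more transcripts, 4 (Alas1, Alas2, Uros and Urod) had a transcript whose share differed by 20 percentage points or more between the libraries. Over 6085 protein-coding genes with 2 or more transcripts and at least 1 TPM in both libraries, 36.9% had such a shift. The median largest shift was 39.7 points in the 7 genes and 13.7 points in the 6085. Protein-coding transcripts held under 50% of the TPM in at least 1 library in 4 of the 7 (Alas1, Alas2, Urod and Clpx), beside 32.6% of the 6085. The median coding share was 67.2% and 46.0% in the 7 genes, and 93.5% and 93.3% in the 6085. Depth differs between the libraries together with these shares, and its part in them was not tested.

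**Figure D4:**
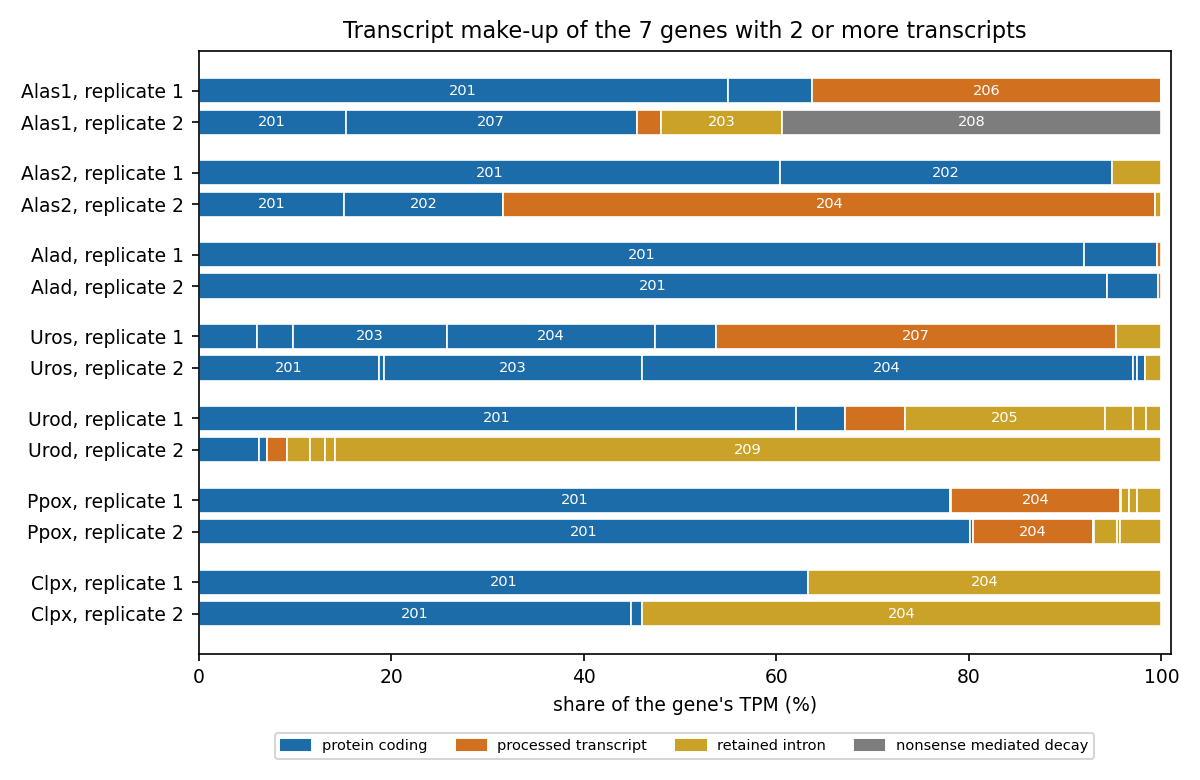
Share of each gene's TPM by transcript in each library (%), for the 7 genes with 2 or more transcripts, coloured by annotated type; numbers inside the bars are the transcript's suffix where its share is 10% or more. Alad and Ppox keep similar bars in both libraries, whereas Alas2-204 and Urod-209 appear in replicate 2 and Uros-207 in replicate 1.

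Some counts could mix with those of a partner on the opposite strand, since whether strand was used in counting is not given in the sources used here. Alas2 shares 311 exonic bases with Apex2 (107 and 124 expected counts) and Ppox 791 with B4galt3 (1302 and 2083 expected counts). The overlaps of Alas1 and Cpox were with genes of at most 1 count. Fragments that lie wholly within the shared bases of a pair cannot be told apart without strand.

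The genes that feed the chain and act with its enzymes were followed through a list of 28, of which 26 were at or above 1 TPM in both libraries. Among the 28, 12 were called higher in replicate 2 and 2 higher in replicate 1, beside 24.3% and 17.1% of all tested genes. Of 9 genes for substrate supply 6 were called higher in replicate 2 and 0 higher in replicate 1, with a median log2 difference of 0.91 beside 0.05 over all tested genes. Of 12 partners and regulators 3 were higher in replicate 2 and 2 in replicate 1 (median 0.07), and of 7 genes for iron-sulphur and vitamin B6 cofactors 3 were higher in replicate 2 and 0 in replicate 1 (median 0.11).

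In substrate supply, Shmt2, which makes mitochondrial glycine, was the most abundant at 295 and 464 TPM. Slc25a38, the mitochondrial glycine carrier, was second by mean TPM, at 209 and 198 TPM, though below Slc25a39 in replicate 2. Its scaled counts were 1.88-fold higher in replicate 2, and coding transcripts held 26.0% and 85.9% of its TPM. Suclg1, a subunit of succinyl-CoA ligase, was at 4.33 and 64.8 TPM, 9.26-fold higher in replicate 2 by scaled counts, with a coding share of 82.4% and 23.2%. Ogdh, which produces succinyl-CoA, was 4.01-fold higher, at 15.76 and 50.04 TPM. Slc25a39, a mitochondrial carrier of glutathione, was 3.07-fold higher, at 112 and 277 TPM. Aldh6a1, of valine breakdown, was the least abundant at 0.39 and 1.28 TPM, and 3.49-fold higher.

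Among partners, Tmem14c, which aids the transport of protoporphyrinogen, had the highest mean TPM, at 122 and 877, and was 7.73-fold higher in replicate 2. Abcb10, a mitochondrial transporter that associates with ferrochelatase, had the next highest mean, at 435 and 317 TPM, was above Tmem14c in replicate 1 and was not called. Ireb2, an iron regulatory protein that binds the element shown for Alas2, was the least abundant at 1.46 and 1.53 TPM.

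Among cofactor genes, Glrx5, which hands on iron-sulphur clusters, was at 1771 and 1345 TPM, above each of the chain enzymes analysed here in both libraries. Pdxk, the kinase that acts on vitamin B6, was the least abundant at 4.89 and 5.06 TPM and was not called.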

How the data were processed

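The authors deposited, for each of 2 libraries, a gene and a transcript table, quantified on mm10 with GENCODE M4, per the deposited notes; the column names are those of RSEM. Per the file headers the tables hold expected counts, TPM, FPKM, the percent of a gene's TPM on each transcript, and posterior standard deviations of counts with TPM bounds, which were handled as signal values. Aligner and versions: not given in the sources used here.

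Names, transcript types and exons came from GENCODE M21 (GRCm38), which gave symbols to 42462 of 43346 gene rows; the other 884 kept their identifier. For 44 of the 48 transcripts the deposited length equalled that in M21, the exceptions being Alas1-205, Alas1-207, Cpox-201 and Fech-201. Protein-coding TPM is the sum over transcripts of that type.

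Expected counts were rounded and compared between libraries with an exact two-sided binomial test against library sizes scaled by TMM (edgeR 4.0.16, R 4.3.3), over genes with at least 10 counts in sum, with Benjamini-Hochberg adjustment over all genes tested; a gene was called where its adjusted p was below 0.05 and the fold, taken after adding 0.5 counts, reached 1.5. The test was also run on counts simulated with counting error alone, which is the error it assumes. That run therefore cannot show how the test behaves where libraries vary further. The binomial test has counting error only, and intervals are at the 95% level. With 1 group, no comparison of conditions was made. Ratios of levels used TPM + 0.1 and no test. Pathway neighbours were named where they were the 2 highest or the lowest of their role or called with a fold of at least 3, and transcripts where they held 10% or more in both libraries or shifted by 20 points or more; some neighbours that this rule picks are not reported here; the member genes were all named, and a few transcripts beside these give the values a result turns on. Alternatives were DESeq2 1.42.0 size factors, total counts, other filters and folds, other level measures and single libraries. Promoter windows are RefSeq's (GRCm38.p6). Genes and lists were chosen with earlier results of these data known.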

Additional observations from a re-analysis of the deposited data

How the results depend on the processing

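With a minimum fold of 2 the called genes of the chain numbered 2 in place of 4, as Alas2 and Alad lay under it, and the called pathway neighbours 8 in place of 14, beside 21.8% of all tested genes in place of 41.4%. With total counts, or with TPM for the fold, Alas1 was called too. The count stayed at 4 with DESeq2 size factors, posterior mean counts and both other count filters. Among differences of single genes 1 reversed, that of Urod. It was at 1.13 on the log2 scale by scaled counts and at -1.26 by protein-coding TPM, a measure added after seeing the data. By protein-coding TPM the difference of Alas2 (0.21) fell under the minimum fold, and that of Clpx (-0.86) passed it. Counts of protein-coding transcripts were not tested on their own, so these differences have no p-value for that measure. With scaled counts per kilobase of the longest coding transcript, 5 of 6 steps were separated in place of 3, Urod over Uros and Cpox over Urod being added. That alternative fixes each gene's length in both libraries. Alas2 over Alas1 kept its sign and stayed separated under the other measures, from 3.36 with a pseudocount of 1 to 3.81, and in single libraries was 3.27 to 4.25. Main isoforms (10% or more in both libraries) numbered 12, and 16 to 18 in single libraries. Counts of calls and of separated pairs need both libraries and were not given for one alone. No paired analysis was possible because there is only 1 group. The transcript shares of Alas1 rest on few counts, as its transcripts held at most 148 counts each. So do those of Uros in replicate 1, where Uros-204 held the most, at 63.0 counts.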
